A study of Mus musculus with 14 samples.

Results

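Imprinted genes are expressed mainly from the copy inherited from 1 parent, and the 9 followed here, Meg3, Rian, Dlk1, H19, Igf2, Grb10, Peg3, Mest and Cdkn1c, are known for roles in growth. Every probe set that the platform annotation assigns to these symbols was taken and kept apart, which gave 30 of the 45101 probe sets of the mouse expression array. Meg3 had 11 probe sets, Peg3 had 5, Rian had 4, Grb10 had 3, and Dlk1 and Igf2 had 2 each. H19, Mest and Cdkn1c had 1 probe set each, and the annotation of the H19 probe set names Mir675 as well, a microRNA gene that lies inside H19.

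The 14 arrays formed 7 groups of 2. Wild-type mice (WT, written Tet2+/+ Mx+ in the labels) were compared with littermates that had lost Tet2 (KO, written Tet-/-Mx+) on a mixed B6/129 background. The Tet2 enzyme oxidises the methyl group of cytosine in DNA. Mice received pIC to trigger the deletion, and both genotypes carried Mx. With pIC this is usually the interferon-responsive Mx1-Cre, which is known to act in cells outside the blood as well. LSK cells, the lineage-negative marrow fraction with c-Kit and Sca1 that contains the blood stem cells, and CMP cells were sorted 4 weeks after deletion. GMP cells were sorted from the same genotypes, with no time given. CMP and GMP, the common myeloid and granulocyte-macrophage progenitors, are Sca1-negative and CD34-positive and differ in Fc gamma receptor, which is higher on GMP. The KO replated group came from CD150+ LSK cells of Tet2-deficient mice plated 5 times in culture. No replated WT group was analysed here, so culture and genotype cannot be told apart in that group. The labels do not say whether replicates came from separate mice or pools, so the p-values measure only the spread between these samples.

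Imprinting is set by DNA methylation that differs between the maternal and paternal copies at control regions, and many imprinted genes sit in clusters that share such a region. Paternally expressed genes such as Igf2, Dlk1, Mest and Peg3 are known mostly as promoters of growth, and maternally expressed genes such as H19, Grb10, Cdkn1c and Meg3 mostly as its restraints. In blood, several of them are known for high expression in long-term stem cells and for a part in keeping these cells out of the cell cycle.

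Signal was read against a floor, the highest of the 27 bacterial control probe sets on each array, which lay between 20.8 and 27.8. Marker genes were read beside the labels. The stem cell gene Hlf was at 3333 to 4349 in LSK arrays and at 204 to 994 in CMP and GMP arrays. The granule enzyme gene Elane was at 7234 to 7634 in GMP arrays. Of 10 granulocyte-macrophage genes, 3 were called lower in CMP than in GMP in each genotype (limma), and 0 of 18 stem cell genes were called. The shares over all probe sets were 0.415% in WT and 0.408% in KO. Replated cells were unlike the sorted progenitors, with Mpo, a granule enzyme gene of myeloid progenitors, below the floor at 14.1 and 14.2. The mast cell protease gene Cpa3 stood at 13438 and 14150 there, and all 10 mast cell and basophil markers measured lay above the floor on both arrays. Xist, which silences 1 X chromosome in females, was at 18.7 to 29.7 in sorted WT arrays and 4980 to 6634 in sorted KO arrays. It was at 18.4 and 21.9 in replated arrays. Sex and genotype therefore cannot be told apart in the sorted cells. Of the 4 sex-linked genes measured, 3 were called higher and 1 lower in replated cells than in KO LSK (limma). Sex and culture therefore cannot be told apart where replated cells are compared with sorted KO cells. The brightest Tet2 probe set read 454 to 2045 in WT arrays, 855 to 2376 in sorted KO arrays, and 1786 and 1823 in replated arrays. Where it lies relative to the deleted part is not given in the sources used here, so it does not check the labels. In bulk RNA, fewer cells that express a gene and less RNA per cell cannot be told apart.

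The 9 genes differed widely in level. Grb10 and Mest were well above the floor in all 7 groups. Rian exceeded it on both WT LSK arrays and on no other array, H19 on these and 1 KO LSK array, and Dlk1 and Cdkn1c on 1 WT LSK array each. Igf2 and Peg3 were below the floor on all 14 arrays, and Meg3 read just above it with little change between groups. Of the 30 probe sets, 12 exceeded the floor on at least 1 array, 9 did so on both arrays of at least 1 group, and 18 did so on none. Over the whole array, 61.9% of probe sets exceeded it on both arrays of a group.

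**Figure D1:**
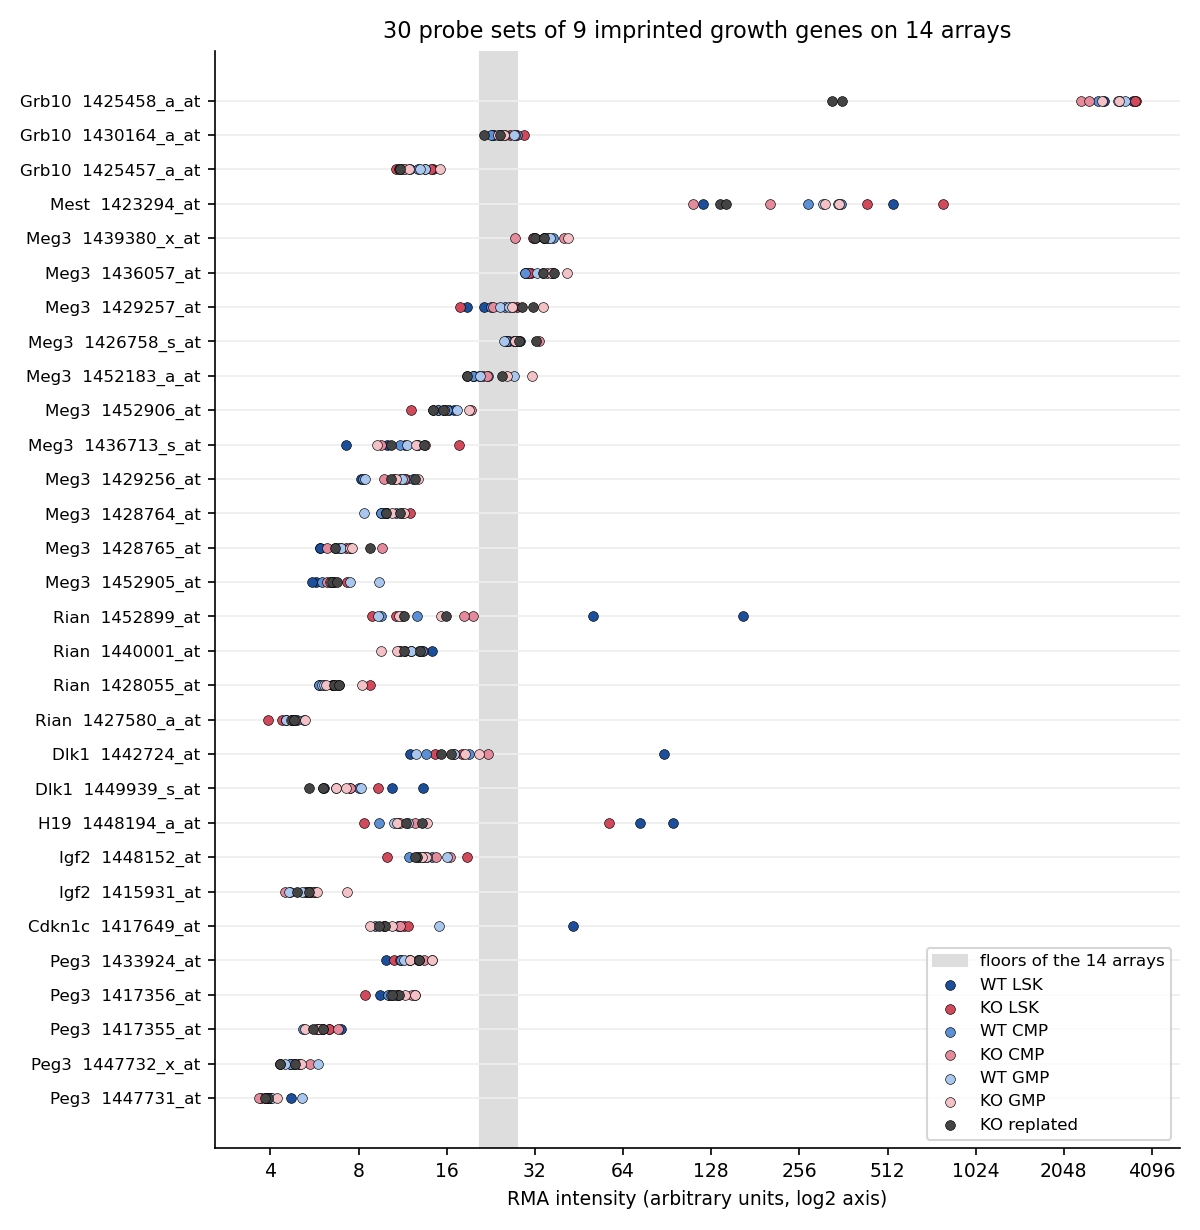
Each row is a member probe set, each point is 1 of the 14 arrays coloured by group, the horizontal axis is RMA intensity on a log2 scale, and the grey band spans the floors of 20.8 to 27.8. Grb10 1425458_a_at reads 332 to 3608 and Mest 1423294_at 111 to 789, while all Igf2 and Peg3 points lie left of the band.

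Grb10 encodes an adaptor protein that binds the insulin and IGF1 receptors and dampens their signal. Its brightest probe set, 1425458_a_at, had intensities of 3533 and 2802 in WT LSK, 3608 and 3578 in KO LSK, 2685 and 3176 in WT CMP, and 2335 and 2490 in KO CMP. It stood at 3143 and 3301 in WT GMP and at 3168 and 2774 in KO GMP. In replated KO cells it was at 332 and 358. Among sorted cells the KO LSK arrays were the highest and the KO CMP arrays the lowest, the other 4 groups overlapped, and both replated arrays lay far below all of them. The order of group levels (means of log2 values turned back to intensity) was KO LSK 3593, WT GMP 3221, WT LSK 3147, KO GMP 2965, WT CMP 2920, KO CMP 2411 and replated 345. Neighbours in this order overlapped between WT GMP and WT CMP, while KO LSK, KO CMP and the replated cells each lay apart from the group next to them. How many of all probe sets part in this way was not counted, and no comparison among sorted groups was called for Grb10.

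Grb10 fell in replated cells against each sorted KO population. Its log2 difference was -3.38 ± 0.15 (SE, n = 2 against 2) against KO LSK, a 10.4-fold lower level (limma, adjusted p = 6.91e-07). Against KO CMP the difference was -2.81 ± 0.15, or 6.99-fold lower (limma, adjusted p = 2.47e-06), and against KO GMP it was -3.10 ± 0.15, or 8.59-fold lower (limma, adjusted p = 1.23e-06). These calls held under all 10 alternative settings and without each array in turn. Tet2 loss in sorted cells gave no call for Grb10, with log2 differences of 0.19 ± 0.15 in LSK, -0.28 ± 0.15 in CMP and -0.12 ± 0.15 in GMP. The 95% interval of the LSK difference ran from -0.16 to 0.54. KO LSK exceeded the mean of KO CMP and GMP by 0.43 ± 0.13, which did not pass (limma, adjusted p = 0.136), and the same step in WT was 0.04 ± 0.13.

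The other Grb10 probe sets did not carry this pattern. Probe set 1430164_a_at read 21.5 to 29.3 on the 14 arrays, close to the floor, with 24.4 and 21.5 in replated cells. Probe set 1425457_a_at was below the floor throughout, at 10.7 to 15.2. The fall of Grb10 therefore rests on 1 probe set, the only bright one.

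Mest encodes a protein of the hydrolase family and its transcript unit contains miR-335. Its single probe set, 1423294_at, read 120 and 536 in WT LSK and 789 and 435 in KO LSK. It was at 355 and 274 in WT CMP and 203 and 111 in KO CMP, and at 309 and 348 in WT GMP and 350 and 313 in KO GMP. Replated cells read 137 and 144. The WT LSK arrays differed 4.47-fold from each other, so the level in that group is poorly fixed, whereas replicates of the GMP groups and of the replated cells differed by at most 1.13-fold. The order was KO LSK 586, KO GMP 331, WT GMP 328, WT CMP 312, WT LSK 253, KO CMP 150 and replated 140. Of neighbours in this order, KO LSK lay apart from KO GMP and all others overlapped, the WT LSK pair spanning 4 other groups. How many of all probe sets part in this way was not counted.

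Mest fell in replated cells against KO LSK, with a log2 difference of -2.06 ± 0.60 (SE, n = 2 against 2), a 4.18-fold lower level (limma, adjusted p = 0.0425). This call was close to the threshold: it was lost with an offset of 16 added to each intensity (adjusted p = 0.0501), with the replicate number as a block (adjusted p = 0.0616) and without either KO LSK array or any of 8 others, with adjusted p up to 0.198. Against KO GMP the difference was -1.24 ± 0.60 (limma, adjusted p = 0.223), and against KO CMP it was -0.10 ± 0.60. Between genotypes Mest had log2 differences of 1.21 ± 0.60 in LSK, -1.05 ± 0.60 in CMP and 0.01 ± 0.60 in GMP, none of which passed (limma, adjusted p = 0.572, 0.86 and 1). In CMP the WT arrays did not overlap the KO arrays, and in LSK they did. The share of all probe sets without such overlap was not counted. KO LSK exceeded the mean of KO CMP and GMP by 1.40 ± 0.52, which did not pass (limma, adjusted p = 0.203).

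**Figure D2:**
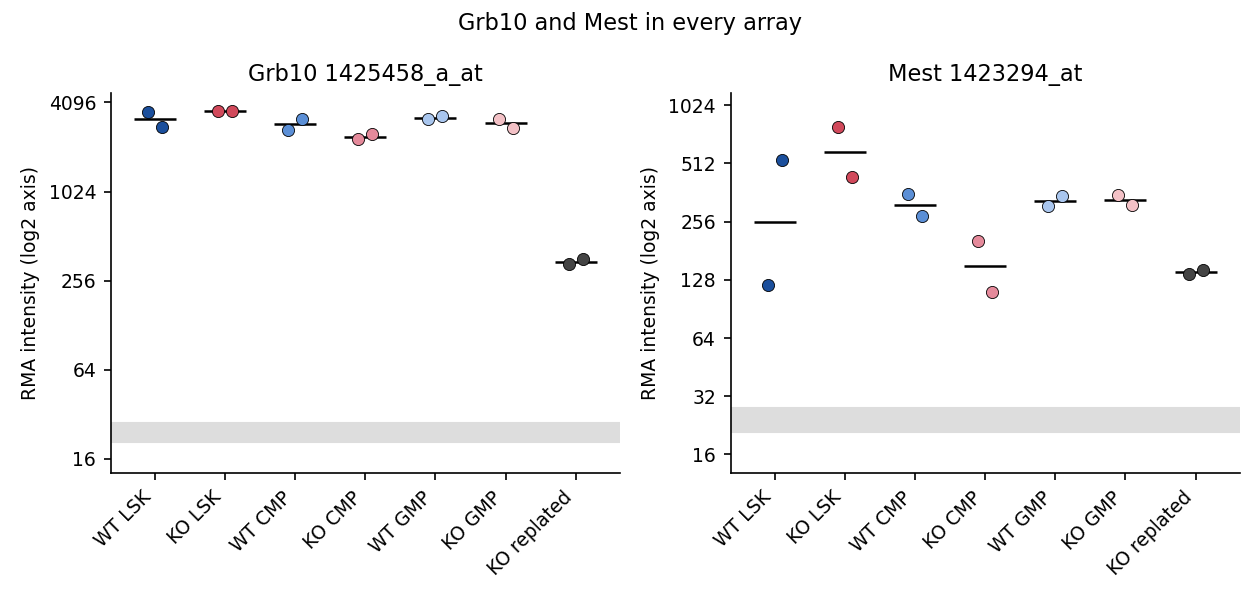
Points are single arrays of each group, lines are group means of log2 values, the vertical axis is RMA intensity on a log2 scale and the grey band spans the floors of 20.8 to 27.8. Grb10 lies at 2335 to 3608 in sorted cells and at 332 and 358 in replated cells, and Mest spans 120 to 536 within WT LSK alone.

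Tet2 acts on methylated CG pairs, so the stretch of 250 bases before a transcript start is shown, with each CG in capitals. The members shown are Grb10, Mest and Rian, each called in at least 1 comparison. H19 was also called but had no window. The sequences and starts are from RefSeq. Grb10 has 2 windows in the table, and which start its probe set reports is not known here. The one shown holds 40 CG pairs, and 1.31% of the 32851 windows hold at least as many, while the other holds 8, and 43.0% hold at least as many. The Mest window shown holds 14, and 29.4% of windows hold at least as many. Another Mest window overlaps it, and a separate one holds 7, and 46.3% hold at least as many. Which start the Mest probe set reports is not known here either. The Rian window holds none, as do 7.87% of all windows, and the median window has 6.

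Grb10 upstream window (GRCm38.p6, chr11:12037421-12037670, minus strand): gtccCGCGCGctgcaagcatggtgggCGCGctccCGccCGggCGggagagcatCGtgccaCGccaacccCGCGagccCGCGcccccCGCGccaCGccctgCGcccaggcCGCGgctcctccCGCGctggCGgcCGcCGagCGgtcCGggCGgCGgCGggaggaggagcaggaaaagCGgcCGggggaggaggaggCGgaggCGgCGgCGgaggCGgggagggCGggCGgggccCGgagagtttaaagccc

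Mest upstream window (GRCm38.p6, chr6:30737800-30738049, plus strand): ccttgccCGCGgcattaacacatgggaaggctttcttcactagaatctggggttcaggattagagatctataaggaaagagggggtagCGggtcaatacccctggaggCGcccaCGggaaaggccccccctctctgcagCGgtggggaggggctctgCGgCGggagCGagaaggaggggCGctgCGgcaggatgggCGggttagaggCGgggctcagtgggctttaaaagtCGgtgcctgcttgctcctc

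Rian upstream window (GRCm38.p6, chr12:109603695-109603944, plus strand): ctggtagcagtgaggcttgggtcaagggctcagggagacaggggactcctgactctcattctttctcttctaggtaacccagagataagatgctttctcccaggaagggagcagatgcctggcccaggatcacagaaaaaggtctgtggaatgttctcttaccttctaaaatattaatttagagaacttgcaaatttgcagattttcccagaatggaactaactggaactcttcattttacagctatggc

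The tables matched 7 of the 9 genes with 14 windows in all, whose CG counts ran from 0 to 40, and a gene with several starts had several windows. The hexamer TGCCGC, which the imprint-guarding protein Zfp57 is known to bind when methylated, was searched on both strands. It occurred in 3 of the 14 windows (both overlapping Mest windows and 1 of Meg3) and in 8.68% of all windows. Methylation was not measured in these data, so the counts describe only the letters of each window.

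Rian is a long noncoding RNA of the Dlk1-Meg3 cluster, expressed from the maternal copy, and several microRNAs lie within it. Its probe set 1452899_at read 164 and 50.5 in WT LSK and 8.89 and 10.7 in KO LSK. Other sorted cells read 12.7 and 9.55 in WT CMP, 19.6 and 18.4 in KO CMP, 9.30 and 11.3 in WT GMP, and 15.3 and 11.0 in KO GMP. Replated cells read 11.4 and 15.9. Both WT LSK arrays were above the floor and differed 3.25-fold from each other, and all 12 other arrays were below it. The 3 remaining Rian probe sets were below the floor on all 14 arrays, at 3.94 to 14.3.

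Rian was higher in WT LSK than in the WT progenitors, by a log2 difference of 3.10 ± 0.40 (SE, n = 2 against 4; limma, adjusted p = 0.00467). Since the progenitors lay below the floor, the level was at least 3.81-fold higher. This call held without each array in turn and was lost only when the model was fitted to the 3 groups alone (adjusted p = 0.0916). In KO cells the same step was -0.69 ± 0.40, with KO LSK below the floor on both arrays. Between genotypes in LSK, Rian fell by 3.22 on the log2 scale (SE 0.46, n = 2 against 2; limma, adjusted p = 0.0349), at least 4.22-fold lower in KO.

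The genotype call for Rian was near the threshold. It was lost under 5 of 10 alternative settings, with adjusted p up to 0.741 when only the LSK groups were fitted. It was kept without WT LSK replicate 1 (-2.37, adjusted p = 0.015) and without WT LSK replicate 2 (-4.07, adjusted p = 0.000812), and lost without KO LSK replicate 1 or any CMP, GMP or replated array (adjusted p 0.0528 to 0.0762). The test of whether the LSK step itself differed between genotypes gave -3.78 ± 0.57, which did not pass (limma, adjusted p = 0.0971). In CMP and GMP the genotype differences of Rian were 0.79 ± 0.46 and 0.34 ± 0.46, at levels below the floor in both genotypes.

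The mature microRNAs that lie within Rian are shown because its transcript unit is their host, with the seed (bases 2 to 8) in capitals. The array measured the host RNA and not these small RNAs. Their 6 seeds differ from one another.

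miR-341-5p: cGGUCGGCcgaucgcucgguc
miR-341-3p: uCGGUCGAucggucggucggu
miR-1188-5p: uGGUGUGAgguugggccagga
miR-1188-3p: uCCGAGGCuccccaccacacccugc
miR-370-5p: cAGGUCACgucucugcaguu
miR-370-3p: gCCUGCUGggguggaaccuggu

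H19 is a maternally expressed long noncoding RNA, known as a restraint on growth and as the host of miR-675. Its probe set, 1448194_a_at, read 95.0 and 73.4 in WT LSK and 8.38 and 57.5 in KO LSK. It was at 9.38 and 10.9 in WT CMP, 12.5 and 11.1 in KO CMP, 10.6 and 11.8 in WT GMP, 10.8 and 13.7 in KO GMP, and 13.2 and 11.6 in replated cells. Both WT LSK arrays and KO LSK replicate 2 exceeded the floor, and the other 11 arrays did not. The KO LSK arrays differed 6.86-fold from each other.

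H19 was higher in WT LSK than in the WT progenitors by a log2 difference of 2.97 ± 0.59 (SE, n = 2 against 4; limma, adjusted p = 0.0311), a level at least 3.50-fold higher. Without WT LSK replicate 1 or 2 the adjusted p was 0.161 or 0.0718, and leaving out any of 8 further arrays also took it past 0.05. In KO the same step was 0.87 ± 0.59 (limma, adjusted p = 0.495). The genotype difference in LSK was -1.93 ± 0.68 and did not pass (limma, adjusted p = 0.377). Both KO arrays lay below both WT arrays, but the share of all probe sets that part in this way was not counted. The difference of the LSK step between genotypes was -2.10 ± 0.83 (limma, adjusted p = 0.649). The mature strands of the microRNA named in the H19 annotation are given with seeds in capitals, followed by those within Mest.

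miR-675-3p: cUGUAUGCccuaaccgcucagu
miR-675-5p: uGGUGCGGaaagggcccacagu
miR-335-5p: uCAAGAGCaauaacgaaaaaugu
miR-335-3p: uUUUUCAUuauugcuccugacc

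Dlk1 encodes a membrane protein related to Notch ligands and Cdkn1c encodes p57, an inhibitor of cyclin-dependent kinases known for holding stem cells in quiescence. Dlk1 1442724_at read 12.0 and 88.4 in WT LSK and 12.6 to 22.2 on the other 12 arrays. Cdkn1c 1417649_at read 43.1 and 11.1 in WT LSK and 8.75 to 15.1 elsewhere. In each gene a single WT LSK array was above the floor, replicate 2 for Dlk1 and replicate 1 for Cdkn1c. WT LSK against the progenitors gave log2 differences of 1.08 ± 0.62 for Dlk1 and 1.0 ± 0.44 for Cdkn1c, and neither passed (limma, adjusted p = 0.469 and 0.317). The second Dlk1 probe set, 1449939_s_at, was below the floor on all arrays at 5.41 to 13.3.

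**Figure D3:**
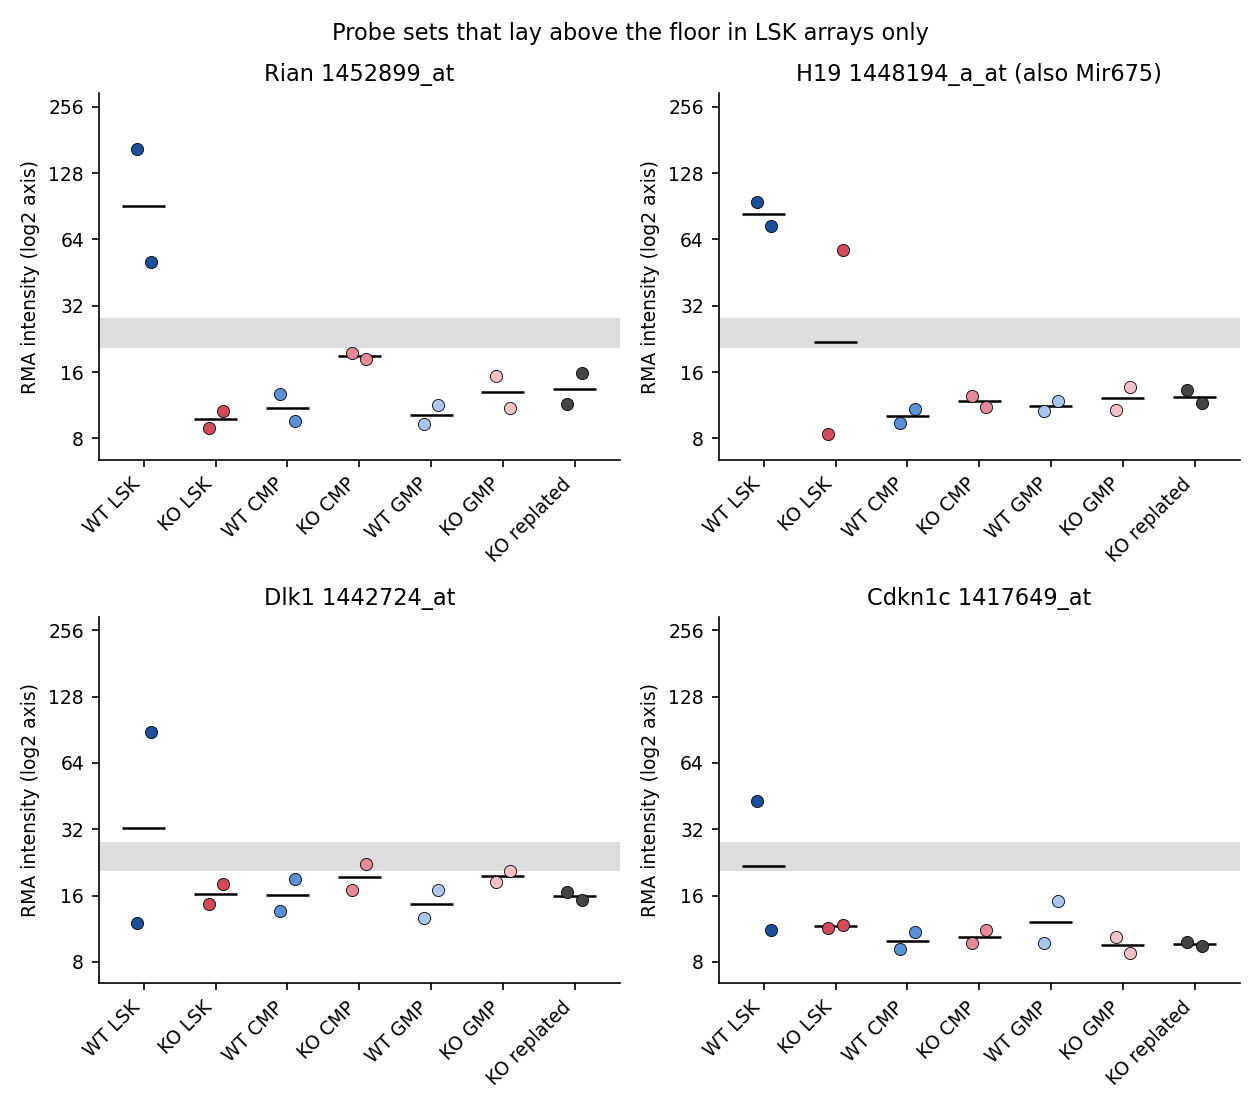
Points are single arrays, lines are group means of log2 values, the vertical axis is RMA intensity on a log2 scale and the grey band spans the floors of 20.8 to 27.8. Rian and H19 exceed the band on both WT LSK arrays, H19 also on 1 KO LSK array at 57.5, and Dlk1 and Cdkn1c on 1 WT LSK array each.

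Genes of other cell types were read beside these values. The summed intensity of 13 marrow stroma markers was 1510 to 1680 in WT LSK, 1046 to 1143 in KO LSK, 741 to 1273 in CMP, 365 to 673 in GMP, and 241 to 291 in replated cells. Of these 13, 6 were above the floor on both WT LSK arrays and 4 on both KO LSK arrays. The collagen gene Col1a2 read 170 in WT LSK replicate 1, where Rian, H19 and Cdkn1c were highest. On all other arrays Col1a2 read 15.7 to 32.9. Col1a1 read 52.1 in WT LSK replicate 2, where Dlk1 was highest, 38.2 in KO LSK replicate 1, and 15.9 to 21.7 elsewhere. H19 read 57.5 in KO LSK replicate 2, where both collagen genes lay within these lower ranges. Col3a1, Lepr, Pdgfra, Kitl, Loxl1 and Lum were below the floor on all 14 arrays. Cxcl12, also on the stroma list, exceeded it on at least 1 array of every sorted group and on neither replated array. Endothelial markers summed to 1972 to 3067 in WT LSK, 1478 to 2200 in KO LSK and 767 to 1453 in CMP, GMP and replated arrays. Of the 9 measured, 5 were above the floor on both WT LSK arrays and 6 on both KO LSK arrays. Cdh5 and Ptprb were below it throughout. Between genotypes in LSK, where 0.295% of all probe sets were called, 0 of 13 stroma and 0 of 9 endothelial genes were called (limma). Their median log2 differences were -0.12 and -0.07. In the same comparison 1 of 10 mast cell and basophil genes and 1 of 10 B, T and NK cell genes were called, both higher in KO. In WT LSK against the progenitors, where 3.05% of all probe sets were called, 3 stroma and 3 endothelial genes were called higher. The medians over the lists were 0.60 and -0.16. The part of these other cells in the values of Rian, H19, Dlk1 and Cdkn1c was not tested, nor was that of sex.

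Meg3, the maternally expressed long noncoding RNA that lies between Dlk1 and Rian, showed no called difference. Its probe sets 1439380_x_at and 1436057_at exceeded the floor on all 14 arrays, at 27.3 to 41.4 and 29.5 to 41.3. On 1439380_x_at WT LSK read 35.4 and 34.3, KO LSK 31.6 and 32.0, and replated cells 32.0 and 34.3. On this probe set both KO LSK arrays lay below both WT LSK arrays, and on 1436057_at, with group levels of 29.7 in WT LSK and 30.8 in KO LSK, they lay above. The share of all probe sets that part in either way was not counted. Group levels on 1439380_x_at ran from 31.8 to 36.3. The genotype difference in LSK was -0.13 ± 0.20 on this probe set (95% interval -0.57 to 0.31) and 0.05 ± 0.13 on 1436057_at (-0.25 to 0.35). Probe set 1426758_s_at read 25.1 to 33.1, 1429257_at read 17.8 to 34.2 and 1452183_a_at read 18.7 to 31.2, all close to the floor. The other 6 Meg3 probe sets were below the floor on all arrays, at 5.57 to 19.3. Meg3 thus lacked the high WT LSK values of 1452899_at, a probe set of Rian, which lies in the same cluster. The other 3 Rian probe sets were below the floor on all arrays and lacked them too.

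Igf2, the growth factor encoded next to H19, was not above the floor on any array. Its probe sets 1448152_at and 1415931_at read 10.0 to 18.7 and 4.48 to 7.30. All 5 probe sets of Peg3, a zinc finger protein gene, were likewise below the floor, at 3.66 to 14.2. For these genes the arrays give an upper bound and no order of groups. In the Rian cluster, the neighbouring noncoding RNA Mirg was also below the floor on all 14 arrays, at 6.65 to 10.9. Around Cdkn1c, the imprinted RNA Kcnq1ot1 read 263 to 791 and Phlda2, a restraint on placental growth, 65.6 to 274, both above the floor on all arrays.

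The counts of called members were small in every comparison, where a probe set is called at an adjusted p below 0.05 over all 45101 probe sets (limma). Between genotypes, 1 of 30 was called in LSK against 0.295% of all probe sets, and 4 had an unadjusted p below 0.05, as did 9.8% of all probe sets. In CMP 0 of 30 were called against 0.0843%, with 0 at an unadjusted p below 0.05 (6.16% of all). In GMP 0 were called against 0.0710%, with 2 at an unadjusted p below 0.05 (4.34% of all). Over the 3 populations averaged, 0 were called against 0.248%, with 1 at an unadjusted p below 0.05 (8.79% of all). The median log2 difference of the members was -0.02 in LSK, 0.07 in CMP and 0.05 in GMP, beside 0.01, 0.03 and 0.01 over all probe sets.

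For the step from LSK to the progenitors, 2 of 30 were called in WT against 3.05% of all probe sets, both higher in LSK, and 5 had an unadjusted p below 0.05 (15.5% of all). In KO 0 were called against 3.19%, and 5 had an unadjusted p below 0.05 (17.8% of all). The difference of this step between genotypes gave 0 calls against 0.0355%, with 5 at an unadjusted p below 0.05 (7.14% of all). Between CMP and GMP 0 members were called in WT against 0.415% and 0 in KO against 0.408%, with 1 and 0 at an unadjusted p below 0.05 (8.33% and 8.39% of all). Replated cells gave 2 calls against KO LSK, 1 against KO CMP and 1 against KO GMP, all lower. The shares over all probe sets were 19%, 18.3% and 19%, and 18 of the 30 members were below the floor on all arrays. The genotype and step comparisons share the WT LSK or KO LSK arrays, and the replated comparisons share the replated arrays.

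**Figure D4:**
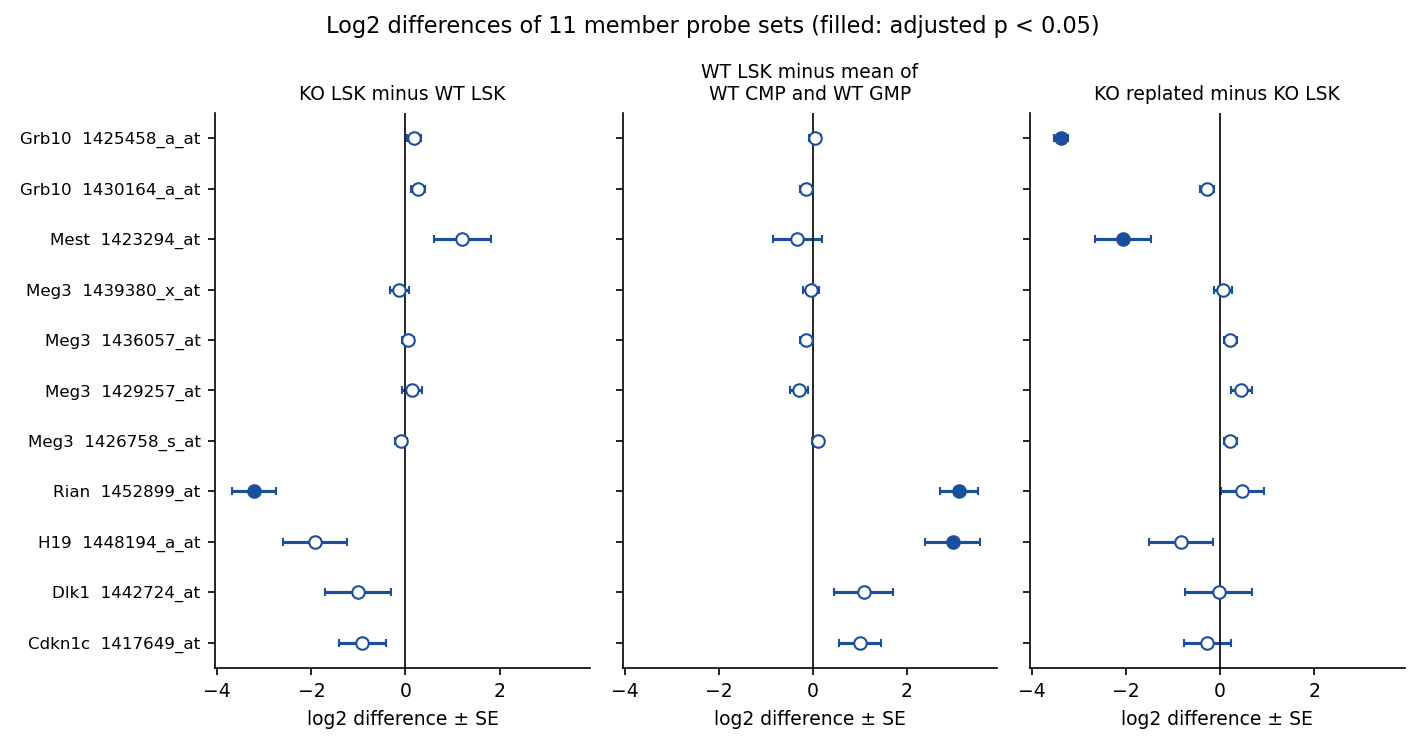
Points are log2 differences from limma of the 11 member probe sets named above, bars are ± 1 SE, and filled points have an adjusted p below 0.05 over all probe sets. Rian is filled at -3.22 and 3.10 in the left and middle panels, H19 at 2.97 in the middle, and Grb10 at -3.38 and Mest at -2.06 on the right.

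The imprinted neighbours of Grb10 moved the other way in replated cells. Ddc, the enzyme that makes dopamine and serotonin, and Cobl, an actin nucleator, are the next protein-coding genes on either side of Grb10 in the RefSeq table. Cobl 1434917_at read 2671 and 2888 in replated cells and 12.7 to 18.3 on all 12 sorted arrays, below the floor. It rose by a log2 difference of 7.37 ± 0.20 against KO LSK (limma, adjusted p = 2.31e-08), a level at least 129-fold higher. Ddc 1426215_at read 283 on both replated arrays and was at least 13.1-fold higher than in KO LSK (5.26 ± 0.21; limma, adjusted p = 3.28e-07). Both calls held under all 10 alternatives and without each array in turn. Fignl1, a DNA repair gene beyond Ddc, was at 396 and 437 in replated cells and at 712 to 1368 in sorted cells, lower in replated cells as Grb10 was. Further out, Ikzf1, a lymphoid transcription factor gene, read 3701 and 3737 in replated cells and 3019 to 4099 in sorted cells.

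Ddc was also higher in WT LSK than in other sorted cells. It read 35.5 and 28.2 in WT LSK, above the floor, and 6.03 to 8.75 on the 10 other sorted arrays. KO LSK was lower by a log2 difference of -2.10 ± 0.21 (limma, adjusted p = 0.00715), which is at least 1.47-fold once the floor is used. WT LSK exceeded the WT progenitors by 2.04 ± 0.19 (limma, adjusted p = 0.000996), at least 1.33-fold. Both calls held without each array in turn and were lost when values were raised to the floor (adjusted p = 0.224 and 0.157), and the first also with the LSK groups fitted alone (adjusted p = 0.521). The WT LSK values lay only slightly above the floors of 22.3 and 21.1.

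**Figure D5:**
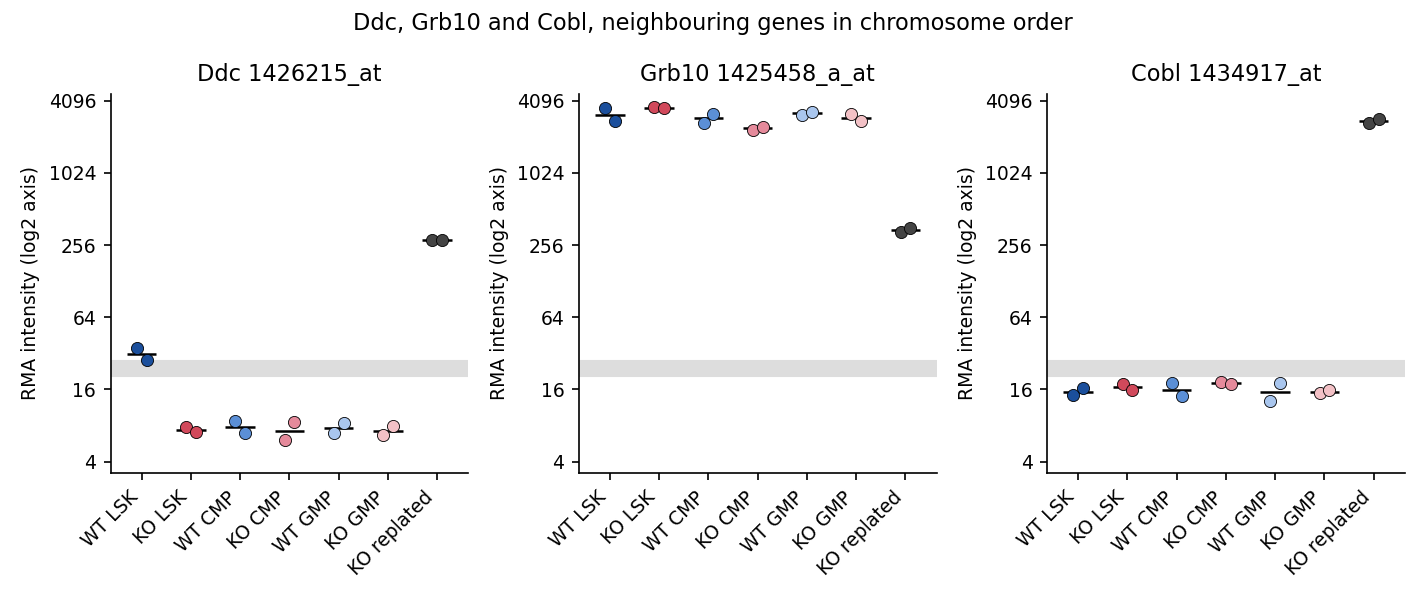
Points are single arrays, lines are group means of log2 values, the vertical axis is RMA intensity on a log2 scale and the grey band spans the floors of 20.8 to 27.8. Replated cells are the lowest group for Grb10 at 332 and 358 and the highest for Ddc at 283 and for Cobl at 2671 and 2888.

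Other imprinted genes were followed as a list, of which 47 of 58 were measured by a probe set naming them alone and 31 exceeded the floor. Between genotypes in LSK 0 were called higher and 1 lower, Ddc, and in CMP and GMP 0 were called. The shares over all probe sets were 0.295%, 0.0843% and 0.0710%. In WT LSK against progenitors 2 were higher, Ddc and Ppp1r9a, and in KO LSK 2 were higher, Ppp1r9a and Igf2r. Over all probe sets 3.05% were called in WT and 3.19% in KO. Ppp1r9a, which encodes an actin-binding protein of synapses, read 2228 and 1028 in WT LSK, 474 and 508 in WT CMP, and 206 and 235 in WT GMP. It was 4.60-fold higher in LSK in WT (limma, adjusted p = 0.00633) and 3.61-fold in KO (adjusted p = 0.0159). Both calls were lost with only the groups compared (adjusted p = 0.0835 and 0.0854), and the one in KO also without KO LSK replicate 2. Igf2r, the receptor that clears Igf2, was 4.75-fold higher in KO LSK (limma, adjusted p = 0.0488), a call lost under 5 of 10 alternatives, the replicate block among them (adjusted p = 0.0709), and without 11 of the 14 arrays, both KO LSK arrays included. This call does not mark a step found only in KO. Group levels of Igf2r were 421 in KO LSK, 102 in KO CMP and 77.4 in KO GMP. WT levels ran the same way without a call, LSK at 423, CMP at 155 and GMP at 112. In replated cells against KO LSK 5 of the 47 were higher and 9 lower, where 19% of all probe sets were called. The median log2 difference was -0.10 there, beside 0.03 over all probe sets.

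Among those lower in replated cells, Ppp1r9a was at 13.6 and 14.8, at least 66.0-fold below KO LSK. Gatm, an enzyme of creatine synthesis, was at 3.35 and 5.64, at least 19.9-fold lower. Igf2r was 14.6-fold lower at 28.2 and 29.7 (limma, adjusted p = 0.00148). Ndn, a gene linked to growth arrest, read 38.9 and 16.4 in replated cells, the second below its floor of 22.5, and 218 and 814 in KO LSK (-4.06 ± 1.23; limma, adjusted p = 0.0482). Among those higher besides Cobl and Ddc, Osbpl5 rose 9.39-fold, and Gnas, encoding a G protein subunit, rose 1.67-fold (limma, adjusted p = 2.27e-05 and 0.00604).

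In the insulin and IGF pathway, where Grb10 and Igf2 act, 29 of 32 listed genes were measured and 20 exceeded the floor. Between genotypes 1 was called, in LSK, where 0.295% of all probe sets were called. Igfbp5, which binds IGFs outside cells, read 48.0 and 14.5 in WT LSK and 393 and 543 in KO LSK, a log2 rise of 4.13 ± 0.58 (limma, adjusted p = 0.0323). The second WT LSK array was below its floor of 21.1, and the log2 difference was 4.99 without WT LSK replicate 1 and 3.27 without WT LSK replicate 2. The call was lost with array weights, with the LSK groups alone (adjusted p = 0.683) and without 9 of the 14 arrays, KO LSK replicate 2 among them. In replated cells Igfbp5 reached 4427 and 5488, 10.7-fold above KO LSK (limma, adjusted p = 0.00308). Igfbp4 fell 5.62-fold there (adjusted p = 0.000209), and against KO LSK 2 of the 29 genes were higher and 3 lower, where 19% of all probe sets were called. Igf1r, a receptor that Grb10 binds, read 2147 to 3764 in sorted cells and 2214 and 2177 in replated cells.

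Of genes for imprint control and DNA methylation, 20 of 22 were measured and 19 exceeded the floor. Between genotypes 0 were called in LSK, CMP or GMP (limma), against 0.295%, 0.0843% and 0.0710% of all probe sets. Zfp57, which guards imprints, was called higher in WT LSK than in the progenitors (1.05 ± 0.15; limma, adjusted p = 0.00797), but at 24.9 and 25.4 it was near the floor and at least 1.05-fold higher by that measure. The call was lost with floored values and with only the groups compared (adjusted p up to 0.635). Dnmt3l, a cofactor of DNA methylation, was called lower in the same comparison (-0.95 ± 0.19, limma, adjusted p = 0.0302). It was also called lower in WT CMP than in WT GMP, where it read 46.9 and 57.4 against 13.6 to 21.5 elsewhere. Both WT GMP arrays exceeded the floor and no other array did. By that measure Dnmt3l in WT LSK was at least 1.46-fold lower than in the progenitors. The first call was lost with only the groups compared and without 8 of the 14 arrays, WT LSK replicate 2 among them (adjusted p up to 0.158). The second was lost under 2 of 10 alternatives, the replicate block being one, and without 10 of the 14 arrays (adjusted p up to 0.258). In replated cells against KO LSK 0 of the 20 were higher and 6 lower, where 19% of all probe sets were called. Dnmt3b, a methyltransferase that sets new marks, fell 14.9-fold and Tet1, an enzyme of the Tet2 family, 21.2-fold (limma, adjusted p = 2.52e-05 and 0.000137). Trim28, the partner of Zfp57, fell 2.63-fold, Uhrf1 2.23-fold and Dnmt1, which copies methylation at replication, 1.44-fold.

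Genes whose pattern was nearest to each member were ranked by Pearson r of log2 values over the 14 arrays, among 13676 probe sets above the floor that changed by at least 1 log2 unit. For Grb10 these were Dock1 (r = 0.991), Tfpi, Pdk1, Cd24a and Idh3a (r = 0.987), each lower in replated cells, with Dock1 at a group level of 10.5 there and 1262 to 1790 in sorted cells. For H19 the nearest was Bst1 (r = 0.967), at 69.6 in WT LSK, 16.3 in KO LSK and 6.14 to 9.55 elsewhere, followed by Runx1t1, St8sia1, Zfp982 and Gbp8 (r = 0.904). For Rian they were Myog (r = 0.924), Enho, Slamf6, Lrrc3 and Scn4b (r = 0.907), each highest in WT LSK. For Mest the nearest was Armc8 (r = 0.944), and for Meg3 1439380_x_at it was Tmed5 (r = 0.741). H19 and Rian correlated with each other at r = 0.76. These points share arrays and groups of 2, so each r is a description of these 14 arrays.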

How the data were processed

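RNA from 14 samples (5 ng of total RNA each, amplified and biotin-labelled, per the labels' protocols) was measured on 1-colour mouse arrays. The values are linear intensities, 1 per probe set, which the authors deposited after RMA (background correction, quantile normalisation and probe summary), per the submitters' processing notes. For the software and its version, the sources used here give nothing. Amplification from so little RNA can add spread to dim genes, and precision is limited by having 2 arrays a group.

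From these, log2 intensities of all 45101 probe sets were fitted in 1 model with a mean per group (limma 3.58.1 in R 4.3.3; Python 3.11.15 with pandas 2.3.3 and numpy 2.4.6 for tables). p-values were adjusted over all 45101 by Benjamini-Hochberg, and an adjusted p below 0.05 was called. The script was tested on simulated data. In the platform annotation, 34958 probe sets carry 1 symbol, 932 several and 9211 are unlisted. For list genes, of the probe sets that name the gene alone, the one brightest on average was taken. A fold against a group below the floor uses the floor of each array and is written as "at least".

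All members were named, with list genes that were called or had the smallest p, and the 5 nearest patterns per member. Cell type markers, Mirg, Kcnq1ot1, Phlda2, Igf1r, Fignl1 and Ikzf1 were named after their values were seen. The members and lists were chosen with earlier results of these data known. Same-numbered arrays did not deviate together (r from -0.078 to 0.075 over 21 pairs of groups). This gives no sign that the numbers pair samples, but it cannot exclude that same-numbered samples shared mice or pools. The alternatives were floored values, a filter on dim probe sets, quantile normalisation, median centring, an offset of 16, array weights, trended robust moderation, only the groups compared, a replicate block, 1 probe set per gene and leaving out each array.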

Additional observations from a re-analysis of the deposited data

How the results depend on the processing

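With 2 arrays a group, the counts of called members were small and several moved. Rian, the 1 member called between genotypes in LSK, was lost with floored values, an offset of 16, array weights, only the groups compared and the replicate block (0 called each), and leaving out each array gave 0 to 3. In WT LSK against progenitors, 2 called became 1 with only the groups compared. They also became 1 with 1 probe set per gene, where H19 was not tested because its probe set carries 2 symbols. Without each array the count was 1 to 2. In replated cells against KO LSK, 2 became 1 with an offset of 16 or the replicate block, and 1 to 2 without each array. Against KO GMP, 1 became 2 with only the groups compared, and 1 to 2 without each array. Counts of 0 became 0 to 1 without an array for the averaged genotype difference and the KO LSK step, and 0 to 2 for the difference of steps. No direction reversed, and the replicate block changed no other count of called members. Other causes were not tested. Signals under the floors of 20.8 to 27.8 give only bounds, so a change in 18 of the 30 probe sets could not be measured.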
